A study of Mus musculus with 4 samples.

Results

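Of 24497 gene rows in a deposited expression table of mouse acute myeloid leukaemia cells, 78 carry the name of a mitochondrial ribosomal protein. They were chosen by name alone, as rows whose symbol begins with Mrpl or Mrps followed by a digit, which gave 49 genes named for the large subunit and 29 named for the small subunit. All 78 were protein-coding genes in the annotation and all passed the filter on low values, so no member was lost or gained through its level in one genotype. Expression was given as TPM, a share of all transcripts in a library, scaled to a fixed total, that is already divided by transcript length.

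The cells were NRAS/AE9a leukaemic cells, which carry NRAS and AE9a, a splice form of the AML1-ETO fusion, and were made from haematopoietic stem cells of mouse bone marrow. There were 2 libraries of Tet2 KO cells, from Tet2-/- mice that lack exon 3 of the gene, and 2 libraries of WT cells, from wild-type mice, and neither genotype was treated. The culture medium of both held 50 ng/ml of the cytokine SCF, 10 ng/ml each of the interleukins IL-6 and IL-3, and the selection agents puromycin (2 µg/ml) and G418 (1 mg/ml). TET2 oxidises 5-methylcytosine in DNA and RNA. The labels say neither whether a genotype's libraries came from separate cultures or animals nor whether the lines are single clones, so a p-value here reflects just the spread among these 4 libraries, and that spread may be technical.

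Tet2 itself was at 16.98 and 16.95 TPM in Tet2 KO and at 16.62 and 16.98 TPM in WT. A gene-level value of this kind includes reads from exons outside a deletion, so it does not check the genotype labels. Reads by exon were not examined. Spike-in RNA took 5.48 and 5.33% of the Tet2 KO libraries and 4.38 and 4.43% of the WT libraries. All 8 markers of myeloid leukaemia cells were present at 1 TPM or more, with sums of 1126.17 and 1147.02 TPM in Tet2 KO and 1143.86 and 1155.18 TPM in WT. In each of the 8 both Tet2 KO libraries lay on one side of both WT libraries, above them for Kit, Mpo, Cebpa and Ptprc and below them for Itgam, Spi1, Csf1r and Elane. Kit was at 201.19 and 209.41 TPM in Tet2 KO and at 11.63 and 11.99 TPM in WT, and Elane at 10.69 and 10.99 TPM in Tet2 KO and at 37.23 and 39.14 TPM in WT. The part of these differences in the results was not tested. The summed markers of T cells, B cells, erythroid cells, and stromal and endothelial cells stayed at or below 1.03 TPM in every library. In bulk libraries fewer cells of a type and less RNA per cell cannot be told apart.

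The mitochondrial ribosome translates the few proteins encoded by mitochondrial DNA, which are core subunits of the respiratory chain and of ATP synthase. Its small subunit holds the mRNA and decodes it, and its large subunit joins the amino acids and releases the new chain through an exit tunnel towards the inner membrane. All of its proteins are encoded in the nucleus and imported. Many descend from bacterial ribosomal proteins, and others are found only in mitochondria.

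More mitochondrial ribosomal protein transcripts were lower than higher in Tet2 KO cells relative to WT cells. Of the 78 genes, 40 (51.3%) fell and 11 (14.1%) rose at an adjusted p under 0.05 (two-sided limma test on log2(TPM + 1), with Benjamini-Hochberg adjustment over all 11452 genes that passed the filter), while 27 did not pass the test. Among all genes tested the balance was the opposite, with 19.5% called lower and 54.4% called higher. The median log2 fold change was -0.18 over the 78 genes and 0.23 over all genes tested. The changes were small: 5 of the 40 genes that fell were at least 1.5-fold lower, and 0 genes changed by 2-fold or more in either direction. Among the 27 genes that did not pass, log2 fold changes lay between -0.24 and 0.17, with 95% intervals that reached -0.51 at the low end and 0.34 at the high end.

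**Figure D1:**
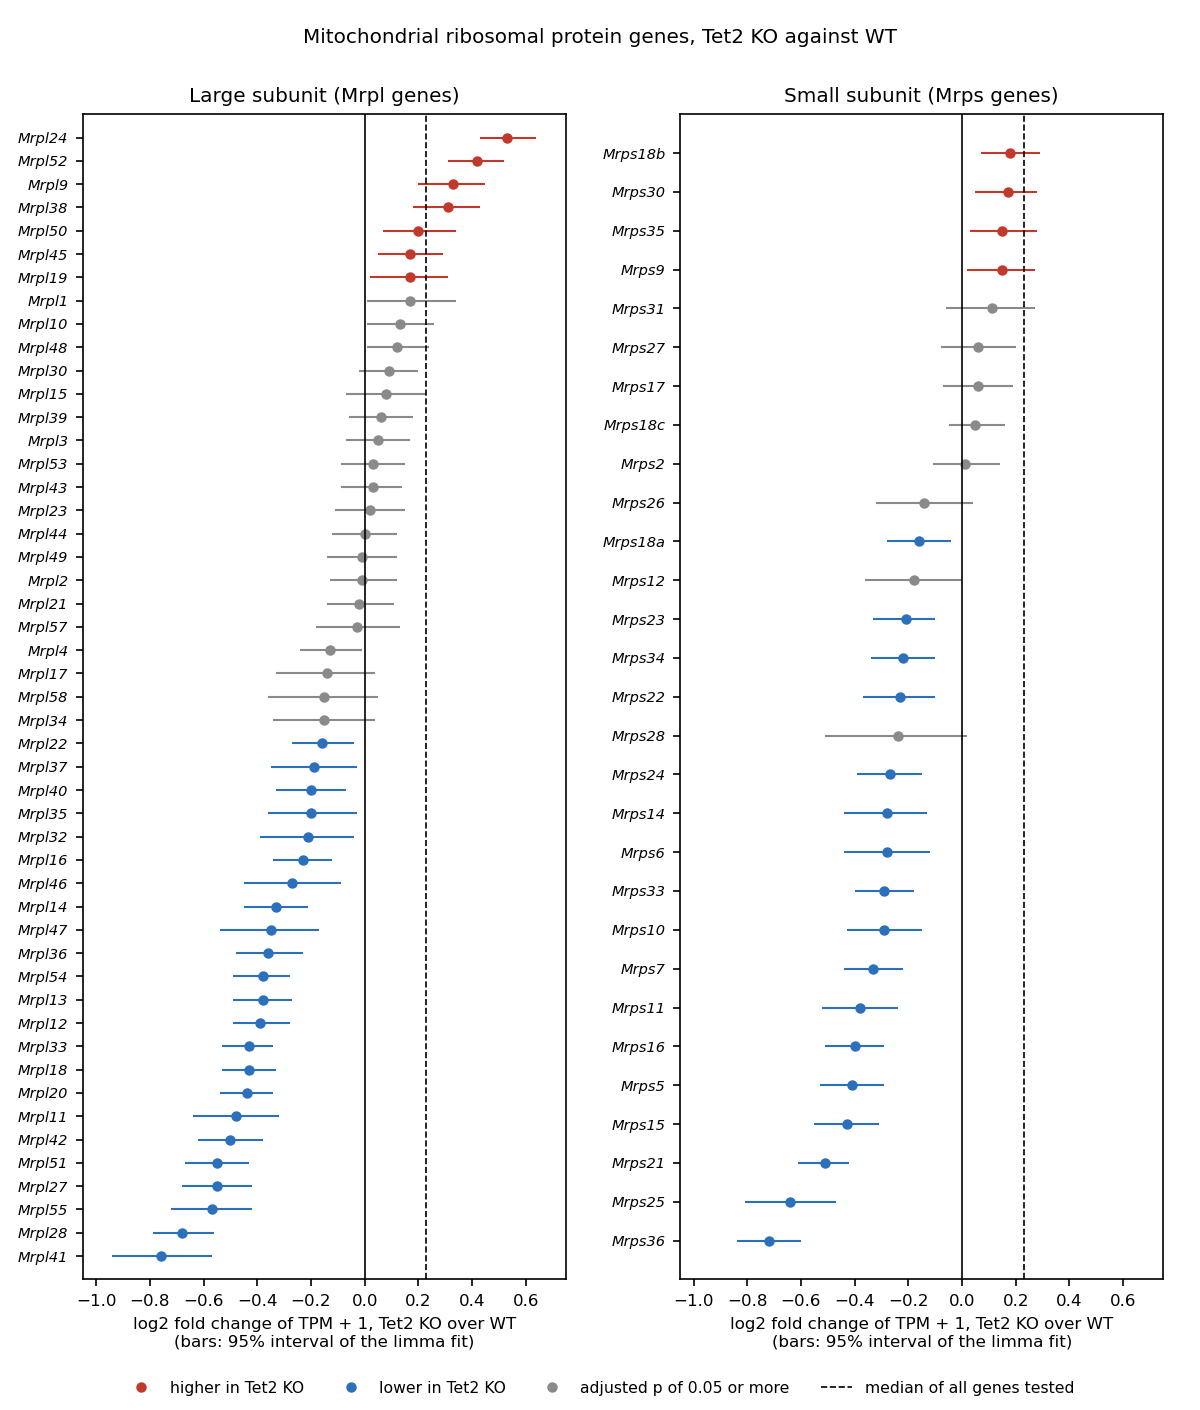
Log2 fold change of TPM + 1 (x axis, Tet2 KO over WT) for each of the 49 large-subunit genes (left) and the 29 small-subunit genes (right), with bars for the 95% interval of the limma fit and the dashed line at the median of all genes tested, 0.23. Most points lie below 0, from -0.76 for Mrpl41 to 0.53 for Mrpl24; of the 11 genes called higher, Mrpl24 and Mrpl52 stayed higher relative to the all-gene median and 0 others did.

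Summed over the 78 genes, the level was 3849.8 and 3859.0 TPM in Tet2 KO and 4405.8 and 4341.8 TPM in WT. The sums of the genotypes did not overlap, and their ratio was 0.881, Tet2 KO over WT. As a share of all gene TPM this was 0.407 and 0.408% in Tet2 KO and 0.461 and 0.454% in WT. Library against library, 50 to 53 of the 78 genes were lower in the Tet2 KO library in each of the 4 pairings across genotypes. These pairings share libraries and are not independent. In the fit 52 of the 78 genes had a log2 fold change below 0, against 3479 of all 11452 genes tested. The median absolute log2 difference per gene was 0.207 to 0.273 across genotypes, against 0.0706 between the Tet2 KO libraries and 0.0566 between the WT libraries. These differences were not computed over all genes, of which 54.4% were called higher and 19.5% lower. They therefore show no trait particular to the 78 genes.

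TPM are shares of a fixed total, so the result was also computed relative to the all-gene median, with median-ratio scaling, which puts the median of all genes tested at 0.0 in place of 0.23. On that scale 64 of the 78 genes were lower and 2 were higher, with a median of -0.42, beside 34.4% of all genes called lower and 33.3% called higher. Mitochondrial ribosomal protein transcripts are short, with a median reference length of 1253 bases against 2787 bases for all genes tested, and across all genes short transcripts had lower fold changes (Spearman's rho = 0.29 between length and log2 fold change over 11361 genes, which share the same 4 libraries). With length and GC content taken out as well, 53 genes were lower and 5 were higher, with a median of -0.25, beside 35.4% of all genes called lower and 34.5% called higher. The direction of the median was the same on all 3 scales, and 39 genes were called lower on each of them. Mrpl19, Mrps30 and Mrps35 were called higher on the deposited scale and lower with length and GC content taken out, and Mrpl1, Mrpl10 and Mrps31 were called on none of the 3 scales.

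**Figure D2:**
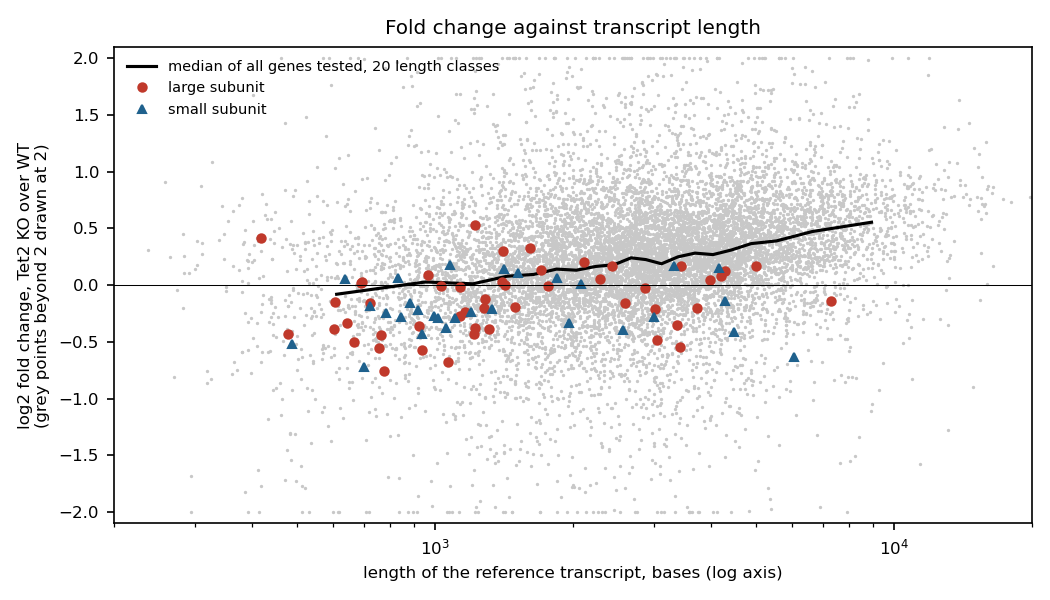
Log2 fold change (y axis, Tet2 KO over WT) against the length of the reference transcript in bases (log x axis) for the large-subunit and small-subunit genes, with a line for the median of all genes tested in 20 length classes. The line climbs with length, and among genes of 117 to 1546 bases the 49 mitochondrial ribosomal protein genes had a median of -0.23 against 0.03 for all genes of that length.

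With the tested genes split by length into 5 classes of like size, 30 of the 49 mitochondrial ribosomal protein genes in the shortest class (117 to 1546 bases) fell and 5 rose. Of all genes in that class 33.5% fell and 35.4% rose. The longer classes, from shorter to longer, held 8, 7, 11 and 3 of the genes. In them 1, 4, 4 and 1 genes fell and 2, 1, 2 and 1 rose, with medians of 0.06, -0.21, 0.05 and -0.14, so the balance towards lower values was not seen in every class, and each of these classes holds under 20 of the genes. The medians of all genes in those classes were 0.13, 0.21, 0.28 and 0.44. Cytosolic ribosomal protein genes are shorter still, with a median of 756 bases, and leaned the other way: 73 of 78 tested were higher and 1 was lower on the deposited scale (median log2 fold change 0.37), beside 54.4% of all genes called higher. With median-ratio scaling 47 were higher and 4 lower (median 0.12, all genes 33.3% higher). With spike-in scaling 38 were higher and 10 lower (median 0.07, all genes 29.6% higher). With median-ratio scaling and length and GC content taken out, 74 were higher and 1 lower (median 0.37, all genes 34.5% higher). They took 19.9 and 19.6% of gene TPM in Tet2 KO and 15.4 and 15.0% in WT, with some uncertainty because near-identical pseudogene copies share reads with them. How far length, GC content and the share taken by such abundant transcripts set the values of mitochondrial ribosomal protein genes was not tested beyond these corrections.

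Both subunits moved in the same direction. Of the 49 large-subunit genes 23 fell and 7 rose (median -0.15 on the log2 scale). Of the 29 small-subunit genes 17 fell and 4 rose (median -0.23). Of all genes tested 19.5% fell and 54.4% rose. The summed large-subunit level was 2467.5 and 2479.5 TPM in Tet2 KO and 2788.3 and 2724.4 TPM in WT. The summed small-subunit level was 1382.4 and 1379.5 TPM in Tet2 KO and 1617.5 and 1617.4 TPM in WT. Both pairs of sums were apart, with Tet2 KO over WT at 0.897 for the large subunit and 0.854 for the small.

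In summed TPM the large subunit outweighed the small one slightly more in Tet2 KO libraries. The ratio of the sums, large over small, was 1.78 and 1.80 in Tet2 KO and 1.72 and 1.68 in WT. The difference between the median log2 fold changes of the subunits was 0.082, large minus small, beside an SD of 0.0485 for that difference between replicate libraries. It lay between 0.049 and 0.119 when each library was left out and came to 0.002 with length and GC content taken out. No p is given for it, and a difference between subunits is therefore not established. Relative to the all-gene median the large subunit had 40 genes lower and 2 higher (median -0.39), and 7 did not pass. The small subunit had 24 lower and 0 higher (median -0.47), and 5 did not pass. On that scale 34.4% of all genes were called lower and 33.3% higher.

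**Figure D3:**
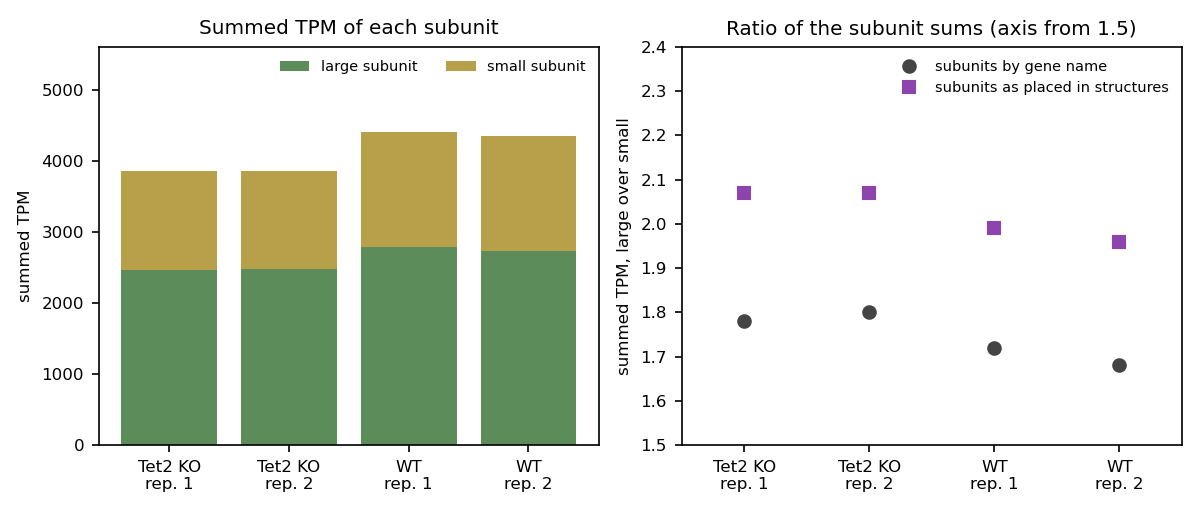
Left, summed TPM of large-subunit and small-subunit genes in each library; right, summed TPM of the large subunit divided by that of the small, with subunits taken by gene name or as placed in structures. The Tet2 KO bars reach 3849.8 and 3859.0 TPM and the WT bars 4405.8 and 4341.8 TPM, and by name the ratio is 1.78 and 1.80 in Tet2 KO and 1.72 and 1.68 in WT.

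Some names do not match where the protein sits. In structures of the mammalian mitoribosome the proteins of Mrps30 and Mrps18a belong to the large subunit, and the protein of Mrps36 is a subunit of the 2-oxoglutarate dehydrogenase complex. With these genes moved, 24 of 51 large-subunit genes fell and 8 rose (median -0.15), and 15 of 26 small-subunit genes fell and 3 rose (median -0.24). The ratio of the sums became 2.07 in both Tet2 KO libraries and 1.99 and 1.96 in WT. For comparison with these counts, 19.5% of all genes tested fell and 54.4% rose. Whether a gene has a bacterial counterpart was not classed for 4 members, of which 3 fell and 1 rose. The 45 genes with a counterpart included 25 that fell and 4 that rose (median -0.23). The 29 genes without one included 12 that fell and 6 that rose (median -0.03). With length and GC content taken out those medians were -0.28 and -0.22, and the difference between these classes was not tested.

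Large-subunit genes held both ends of the range. Mrpl41, a protein found only in mitochondria (chromosome 2, 24974117 to 24975098, mm10, minus strand), was at 9.88 and 11.81 TPM in Tet2 KO and at 19.86 and 18.11 TPM in WT. The libraries of the genotypes were far apart, and the log2 fold change was -0.76 (SE 0.0869, adjusted p = 1.33e-06 by limma). Mrpl28, the counterpart of bacterial L28 (chromosome 17, 26123500 to 26126613), was at 39.01 and 40.98 TPM in Tet2 KO and at 64.54 and 64.51 TPM in WT, a log2 fold change of -0.68 (SE 0.055, adjusted p = 1.32e-08 by limma). Mrpl55 was at 14.1 and 13.52 TPM in Tet2 KO and at 21.8 and 20.23 TPM in WT, a log2 fold change of -0.57 (adjusted p = 2.11e-06 by limma). In each of these 3 genes both Tet2 KO libraries were below both WT libraries.

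Next to the peptidyl transferase centre of the large subunit sits the protein of Mrpl27, whose bacterial counterpart L27 reaches into that centre. Mrpl27 was at 36.9 and 40.17 TPM in Tet2 KO and at 54.49 and 59.31 TPM in WT, a log2 fold change of -0.55 (adjusted p = 6.73e-07 by limma). The stalk of the large subunit, which recruits translation factors, has 5 genes in the table (Mrpl10, Mrpl11, Mrpl12, Mrpl53 and Mrpl54). Of these 3 fell and 0 rose, beside 19.5% of all genes called lower and 54.4% called higher. Mrpl12, the stalk protein itself, was at 97.05 and 92.09 TPM in Tet2 KO and at 126.62 and 121.39 TPM in WT, a log2 fold change of -0.39 (adjusted p = 2.54e-06 by limma). Mrpl11, at the base of the stalk, was at 10.03 and 10.73 TPM in Tet2 KO and at 14.66 and 15.05 TPM in WT, a log2 fold change of -0.48 (adjusted p = 3.51e-05 by limma). Mrpl10, which anchors Mrpl12, did not pass: it was at 48.35 and 52.53 TPM in Tet2 KO and at 46.82 and 45.09 TPM in WT, and its log2 fold change of 0.13 (adjusted p = 0.055 by limma) became -0.16 with spike-in scaling. The fall with spike-in scaling passed (adjusted p = 0.0326 by limma). Without Tet2 KO replicate 1 the log2 fold change of Mrpl10 was 0.19, in the other direction, and with length and GC content taken out it was 0.02. On the deposited scale the stalk genes therefore did not all pass. With median-ratio scaling 4 were lower and 0 higher, beside 34.4% of all genes called lower and 33.3% called higher. With spike-in scaling all 5 were lower, beside 37.8% of all genes called lower and 29.6% called higher. With length and GC content taken out 3 were lower and 0 higher, beside 35.4% and 34.5% of all genes.

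The most abundant large-subunit genes were mostly lower. Mrpl33, the counterpart of bacterial L33, was at 169.79 and 160.9 TPM in Tet2 KO and at 219.76 and 227.71 TPM in WT, a log2 fold change of -0.43 (adjusted p = 2.08e-07 by limma). Mrpl20, the counterpart of L20, was at 98.61 and 101.66 TPM in Tet2 KO and at 137.26 and 135.46 TPM in WT, a log2 fold change of -0.44 (adjusted p = 2.67e-07 by limma). Mrpl18, the counterpart of L18, was at 96.98 and 91.67 TPM in Tet2 KO and at 127.86 and 126.44 TPM in WT, a log2 fold change of -0.43 (adjusted p = 6.61e-07 by limma). Mrpl30 was the exception among these 4, with overlapping libraries. It was at 124.75 and 138.21 TPM in Tet2 KO and at 126.07 and 120.68 TPM in WT, a log2 fold change of 0.09 that did not pass (adjusted p = 0.139 by limma) and was -0.15 relative to the all-gene median. On that scale Mrpl30 was called lower (adjusted p = 0.0267 by limma), as it was with spike-in scaling, at -0.20 (adjusted p = 0.00198 by limma). Without Tet2 KO replicate 1 its log2 fold change was 0.16, in the other direction.

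Mrpl24, the counterpart of bacterial L24, which lies near the mouth of the exit tunnel, had the largest rise of the 78 genes (chromosome 3, 87919506 to 87923672, plus strand). It was at 121.41 and 126.97 TPM in Tet2 KO and at 86.81 and 84.06 TPM in WT, a log2 fold change of 0.53 (SE 0.0486, adjusted p = 5.13e-08 by limma), and it was the only one of the 11 higher genes that kept that call under all 12 alternatives. Of its exonic bases, 26.3% overlap Rrnad1 on the opposite strand, and since the use of strand in counting is not stated, its value is uncertain. Mrpl52 (chromosome 14, 54426909 to 54429756, plus strand) was at 91.44 and 87.33 TPM in Tet2 KO and at 66.53 and 66.94 TPM in WT, a log2 fold change of 0.42 (adjusted p = 1.7e-06 by limma). Both genes stood above WT in both Tet2 KO libraries, and both stayed higher relative to the all-gene median, at 0.29 for Mrpl24 and 0.17 for Mrpl52. With spike-in scaling Mrpl52 was at 0.12 and lost its call (adjusted p 0.0718, the highest of a range from 1.17e-07 over the alternatives).

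The other rises were smaller and depended on the scale. Mrpl9, the counterpart of bacterial L9, was at 57.47 and 63.5 TPM in Tet2 KO and at 48.28 and 47.58 TPM in WT, a log2 fold change of 0.33 (adjusted p = 1.02e-04 by limma) that was 0.09 and not called relative to the all-gene median. Mrpl38, part of the central protuberance, was at 40.91 and 42.61 TPM in Tet2 KO and at 33.77 and 33.41 TPM in WT, a log2 fold change of 0.31 (adjusted p = 1.59e-04 by limma) that was 0.07 and not called relative to that median. Mrpl50 was at 27.66 and 26.53 TPM in Tet2 KO and at 22.58 and 24.22 TPM in WT, a log2 fold change of 0.20 (adjusted p = 0.00937 by limma) that was -0.03 and not called relative to that median. Leaving out WT replicate 1 ended the call of Mrpl50, with a log2 fold change of 0.16 and an adjusted p of 0.14, within 0.00678 to 0.639 over the alternatives.

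Near the exit tunnel Mrpl45 holds the ribosome at the inner membrane. This gene was at 43.61 and 44.87 TPM in Tet2 KO and at 38.39 and 40.09 TPM in WT, a log2 fold change of 0.17 (adjusted p = 0.0137 by limma) that was -0.07 and not called relative to the all-gene median. Its call was lost without WT replicate 1, with a log2 fold change of 0.14 and an adjusted p of 0.16, within 0.0114 to 0.368 over the alternatives. Mrpl44, which has an RNase III fold, overlapped between genotypes, at 44.83 and 44.12 TPM in Tet2 KO and 43.15 and 45.93 TPM in WT (log2 fold change 0.00, 95% interval -0.12 to 0.12, adjusted p = 0.983 by limma). Relative to the all-gene median Mrpl44 was at -0.24 and called lower (adjusted p = 0.00233 by limma). With length and GC content taken out it was at -0.07 and not called. Mrpl58, a peptidyl-tRNA hydrolase built into the subunit, was at 30.46 and 24.44 TPM in Tet2 KO and at 30.55 and 30.41 TPM in WT, so Tet2 KO replicate 1 lay within the WT values and replicate 2 below them, and the log2 fold change of -0.15 did not pass (adjusted p = 0.157 by limma). Without Tet2 KO replicate 1 it was -0.31 with an adjusted p of 0.00204, within 7.47e-07 to 0.989 over the alternatives.

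**Figure D4:**
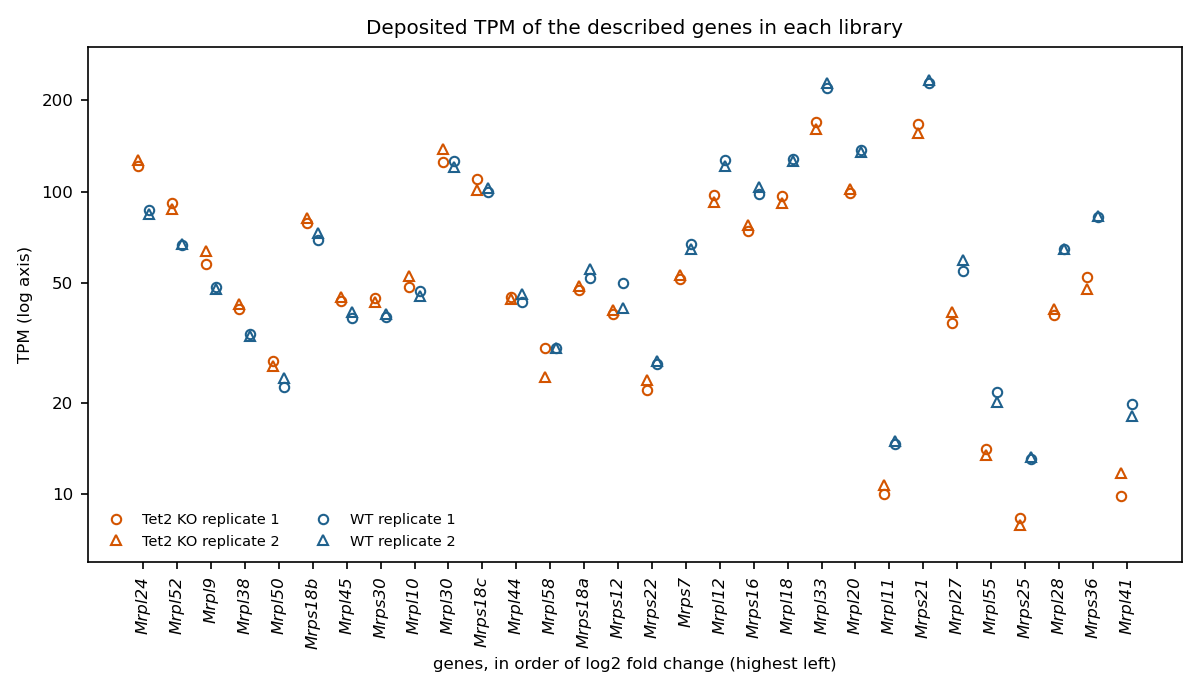
TPM (log y axis) of the members whose TPM are given in the text in each Tet2 KO and WT library, in order of log2 fold change with the highest at the left. Open symbols of the genotypes separate at both ends, as for Mrpl24 at 121.41 and 126.97 TPM in Tet2 KO and 86.81 and 84.06 TPM in WT, and overlap in the middle, as for Mrpl44. Relative to the all-gene median the rises of Mrpl45, Mrpl50, Mrps18b and Mrps30 were slightly below 0 and not called.

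In the small subunit, Mrps21 was the most abundant of all 78 genes in WT. The gene, whose product is the counterpart of bacterial S21 (chromosome 3, 95862634 to 95871519, minus strand), was at 167.16 and 155.97 TPM in Tet2 KO and at 228.3 and 234.0 TPM in WT, a log2 fold change of -0.51 (SE 0.0453, adjusted p = 3.44e-08 by limma). Mrps16, the counterpart of S16, was at 74.31 and 77.76 TPM in Tet2 KO and at 97.84 and 103.32 TPM in WT, a log2 fold change of -0.40 (adjusted p = 3.07e-06 by limma). Mrps7, the counterpart of S7, which helps to organise the head of the subunit, was at 51.54 and 52.9 TPM in Tet2 KO and at 66.93 and 64.82 TPM in WT, a log2 fold change of -0.33 (adjusted p = 3.61e-05 by limma). All 3 genes were lower in both Tet2 KO libraries than in either WT library.

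Mrps12, the counterpart of S12 at the decoding centre, was at 39.39 and 40.66 TPM in Tet2 KO and at 49.95 and 41.41 TPM in WT. Its WT libraries differed more from each other than the nearest libraries of the genotypes did, and the log2 fold change of -0.18 did not pass (adjusted p = 0.0611 by limma). Without WT replicate 2 it was -0.31 with an adjusted p of 0.00281, within 1.12e-06 to 0.641 over the alternatives. Mrps22, in which variants cause a human disorder of oxidative phosphorylation, was at 22.17 and 23.94 TPM in Tet2 KO and at 26.95 and 27.58 TPM in WT, a log2 fold change of -0.23 (adjusted p = 0.00382 by limma). Mrps25 was at 8.38 and 7.92 TPM in Tet2 KO and at 13.13 and 13.32 TPM in WT, a log2 fold change of -0.64 (adjusted p = 2.48e-06 by limma). For Mrps25, 69.8% of exonic bases overlap Nr2c2 on the opposite strand, so this value is uncertain.

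The 3 genes named for bacterial S18 did not move together. Mrps18a, whose product sits in the large subunit, was at 47.18 and 48.69 TPM in Tet2 KO and at 51.77 and 55.3 TPM in WT, a log2 fold change of -0.16 (adjusted p = 0.021 by limma). Leaving out Tet2 KO replicate 1 ended the call (adjusted p 0.0703), as did length and GC correction (-0.12, adjusted p 0.0528) and leaving out WT replicate 2, where the adjusted p of 0.26 was the highest of a range from 1.03e-08 over the alternatives. Mrps18b was at 78.92 and 82.06 TPM in Tet2 KO and at 69.09 and 72.81 TPM in WT, a log2 fold change of 0.18 (adjusted p = 0.00562 by limma) that was -0.06 and not called relative to the all-gene median. Its call was lost without WT replicate 1, with an adjusted p of 0.121, within 0.00391 to 0.227 over the alternatives. Mrps18c, the copy that keeps the bacterial position, overlapped between genotypes, at 109.82 and 101.18 TPM in Tet2 KO and 100.01 and 102.98 TPM in WT (log2 fold change 0.05, adjusted p = 0.35 by limma), and was -0.19 and called lower relative to the all-gene median.

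Mrps36 had the largest fall of the genes named for the small subunit. This adaptor of the 2-oxoglutarate dehydrogenase complex (chromosome 13, 100735955 to 100744659, minus strand) was at 52.25 and 47.54 TPM in Tet2 KO and at 82.16 and 83.03 TPM in WT, a log2 fold change of -0.72 (SE 0.0567, adjusted p = 9.47e-09 by limma). Mrps30, a large-subunit protein in structures, was at 44.56 and 43.08 TPM in Tet2 KO and at 38.57 and 39.36 TPM in WT, a log2 fold change of 0.17 (adjusted p = 0.0148 by limma) that was -0.08 and not called relative to the all-gene median. Its call was lost when WT replicate 1 was left out (adjusted p 0.127) or WT replicate 2 (adjusted p 0.0695), within 0.0127 to 0.205 over the alternatives.

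Exons of some members overlap those of other genes, and the reads involved were not measured. In 6 members the overlap is large: at least 25% of the exonic bases of Mrpl19, Mrpl24, Mrpl43, Mrpl53, Mrps25 and Mrps34 lie within exons of another coding gene, on the same strand for Mrpl53 (88.0%) and for part of Mrps34 (37.0%). Among the other 72 genes 38 fell and 9 rose, with a median of -0.19, beside 19.5% of all genes called lower and 54.4% called higher.

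Motifs of factors known to act on genes of mitochondrial biogenesis were searched in promoter windows of 300 bases, 250 before and 50 after the start, from RefSeq on GRCm38.p6. Both strands were searched, and 69 members had 75 windows. The ETS core CCGGAAG, the letters that GABP binds, was in 34.7% of member windows, against 18.4% of the windows of tested genes and 8.86% of all windows. The YY1 core AAGATGGC was in 12 of the 75 member windows, against 4.7% of tested-gene windows and 2.75% of all windows. The NRF1 core CGCATGCG was in 9.33%, against 4.0% and 1.87%, and the E-box CACGTG that MYC binds was in 9.33%, against 10.1% and 7.15%. These are shares of windows and not of genes, since some members, such as Mrpl48 and Mrpl2, have several windows. The windows of Mrpl2 overlap, and all of them hold the E-box. Those of Mrps16 overlap too, and the window of Mrpl46 shares bases with that of Mrps11. No member window held overlapping matches of different motifs. A match is a description of letters and not of binding.

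By call, the ETS core was in 2 of 8 windows of members that rose, in 11 of 38 of members that fell and in 13 of 29 of members that did not pass. The YY1 core was in 0, 9 and 3 of those windows and the NRF1 core in 2, 2 and 3. The E-box was in 0, 3 and 4 of them, the last including the overlapping windows of Mrpl2. The following stretches, the 110 bases before the start on GRCm38.p6 and on the plus strand, are shown because each belongs to a called gene with a motif there. Capitals mark the motif. The first 3 belong to genes that fell and the last 2 to genes that rose, Mrpl9 only on the deposited scale and with length and GC content taken out.
Mrpl27, chr11:94653681-94653790, ETS core: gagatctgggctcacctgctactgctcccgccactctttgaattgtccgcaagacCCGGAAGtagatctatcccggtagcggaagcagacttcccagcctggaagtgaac
Mrpl51, chr6:125192090-125192199, ETS core: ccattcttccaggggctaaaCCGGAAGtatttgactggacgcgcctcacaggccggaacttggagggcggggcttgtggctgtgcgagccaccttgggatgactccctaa
Mrpl20, chr4:155802768-155802877, E-box: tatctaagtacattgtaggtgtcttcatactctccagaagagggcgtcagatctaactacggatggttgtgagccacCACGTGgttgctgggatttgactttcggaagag
Mrpl52, chr14:54426799-54426908, ETS core on the minus strand: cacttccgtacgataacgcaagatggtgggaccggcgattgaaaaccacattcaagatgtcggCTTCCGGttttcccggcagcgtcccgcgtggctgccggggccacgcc
Mrpl9, chr3:94443226-94443335, NRF1 core: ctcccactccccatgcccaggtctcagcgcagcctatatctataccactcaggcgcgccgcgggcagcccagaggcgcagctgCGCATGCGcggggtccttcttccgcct

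On the deposited scale factors that assemble the mitochondrial ribosome or work with it were more often higher than lower, as all genes were, and their difference from the ribosomal proteins was not tested. Of 25 assembly factors tested 13 (52.0%) were higher and 3 (12.0%) were lower (median log2 fold change 0.27), beside 54.4% and 19.5% of all genes. With the median-ratio scaling 6 were higher and 9 lower (median 0.05), beside 33.3% and 34.4% of all genes. Of 14 translation factors 9 were higher and 2 lower (median 0.26), and with that scaling 4 were higher and 3 lower. Ngrn, needed for the large ribosomal RNA in human cells, was at 30.21 and 33.85 TPM in Tet2 KO and at 16.36 and 15.19 TPM in WT, a log2 fold change of 0.98 (adjusted p = 3.61e-09 by limma). Tfb1m, which methylates the small ribosomal RNA, and Gtpbp10, a GTPase of large-subunit assembly, rose by 0.59 and 0.58 on the log2 scale, and Mrrf, the recycling factor, by 0.58 (adjusted p = 8.27e-06, 8.33e-06 and 7.76e-06 by limma). Tufm, the elongation factor that brings aminoacyl-tRNA, moved the other way, at 48.26 and 50.59 TPM in Tet2 KO and 66.86 and 68.55 TPM in WT, a log2 fold change of -0.45 (adjusted p = 1.53e-06 by limma). Oxa1l, the insertase at the tunnel exit, was at 52.12 and 52.09 TPM in Tet2 KO and at 33.08 and 34.73 TPM in WT, a log2 fold change of 0.61 (adjusted p = 7.25e-08 by limma). Of the 5 mitoribosome proteins in the table under other names, 2 were lower and 0 higher, Aurkaip1 at -0.33 and Chchd1 at -0.21, and with that scaling all 5 were called lower.

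**Figure D5:**
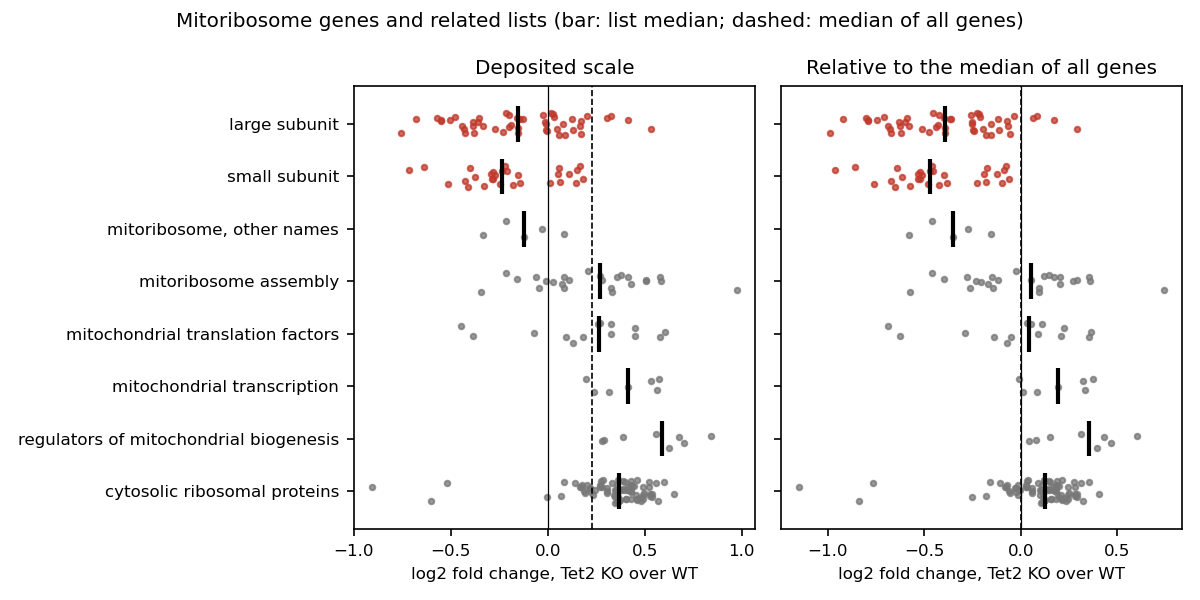
Log2 fold change (x axis, Tet2 KO over WT) of each tested gene of the mitochondrial ribosome and of related lists (rows), on the deposited scale (left) and with median-ratio scaling (right), with a bar for the list median and a dashed line for the median of all genes. On the left the subunit medians lie left of the dashed line at -0.15 and -0.23, those of assembly factors (0.27) and translation factors (0.26) near it and that of the regulators (0.59) right of it, and on the right the subunits lie at -0.39 and -0.47.

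On the deposited scale, where 54.4% of all genes were called higher, known regulators of mitochondrial biogenesis and mitochondrial transcription genes were mostly called higher too. All 8 regulators tested rose (median 0.59 on the log2 scale). Relative to the all-gene median 6 stayed higher and 0 were lower, where 33.3% of all genes were called higher. With spike-in scaling 5 were higher and 0 lower (median 0.31), beside 29.6% of all genes called higher. With length and GC content taken out 5 were higher and 0 lower (median 0.21), beside 34.5% of all genes called higher. Gabpb1, the activating subunit of GABP, was at 40.97 and 40.36 TPM in Tet2 KO and at 21.74 and 22.8 TPM in WT, a log2 fold change of 0.84 (adjusted p = 2.74e-09 by limma). Gabpa, its ETS-domain subunit, was at 35.22 and 30.71 TPM in Tet2 KO and at 20.03 and 19.64 TPM in WT, a log2 fold change of 0.70 (adjusted p = 1.75e-07 by limma). Myc, a transcription factor of growth genes, was at 163.85 and 167.76 TPM in Tet2 KO and at 103.11 and 103.54 TPM in WT, a log2 fold change of 0.68 (adjusted p = 1.07e-09 by limma). Of 7 mitochondrial transcription genes 6 were higher and 0 lower (median 0.42) on the deposited scale, and 3 were higher and 0 lower with median-ratio scaling (median 0.19) and with spike-in scaling (median 0.15). Among them Tfam, which packs mitochondrial DNA, was at 19.5 and 18.32 TPM in Tet2 KO and at 11.95 and 12.99 TPM in WT, a log2 fold change of 0.56 (adjusted p = 4.14e-06 by limma). Mterf1a and Mterf1b, at 0.53 and 0.57, are close copies whose reads cannot be assigned with certainty.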

How the data were processed

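The authors deposited TPM in a single table of 24589 rows, made, per the submitters' processing notes, with STAR and RSEM on mm10, all without versions. The library kit keeps strand, per the labels' protocols. Whether counting used strand, the annotation and any filters: not given in the sources used here. TPM keep no depth, so the depth is unknown and no interval or floor rests on it.

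From these values, 92 ERCC rows were left out. The 27 rows with date-like names were kept, subject to the filter, but not named. The 11452 genes that reached 1 TPM in 2 or more libraries were fitted by limma (3.58.1, in R 4.3.3) as log2(TPM + 1). The fit used its intensity trend and its robust variance option and no replicate block. Adjusted p-values are Benjamini-Hochberg over all genes, two-sided, with a threshold of 0.05. The pseudocount understates changes of low genes. The fit was tested on simulated data. The alternatives tried were pseudocounts of 0.1 and 5, a replicate block, a filter of 5 TPM or none, median-ratio and spike-in scaling, median-ratio scaling with length and GC correction (splines of 5 degrees of freedom), subunits as placed in structures, and leaving out each library. Same-numbered libraries deviated with a correlation of -0.056 across genes, which shows no strong effect shared by them. The labels do not say what the numbers mark, so whether they pair the libraries is not known.

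Named members were the 6 largest changes in each direction with groups apart, the 4 most abundant of each subunit, and listed members of known role, and up to 3 called genes came from each other list. The members and lists were chosen with earlier results of these data known. Lengths and positions are from GENCODE M21, which matched 98.4% of gene rows and all members. Mitochondrially encoded protein genes had no deposited rows under the mt- names sought, so they could not be analysed here. Windows on chromosome 18 were left out.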

Additional observations from a re-analysis of the deposited data

How the results depend on the processing

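Scaling moved the counts most. With median-ratio scaling, spike-in scaling, and median-ratio scaling with length and GC correction, in that order, all genes called higher numbered 3815, 3394 and 3916 (6225 as deposited) and called lower 3936, 4324 and 4024 (2238). Members called higher numbered 2, 1 and 5 (11 as deposited), of which 2, 1 and 4 were in the large subunit (7) and 0, 0 and 1 in the small (4). With the first pair of settings 64 and 66 members were lower (40), of which 40 and 41 were in the large subunit (23). The median log2 fold change of the members was -0.423, -0.47 and -0.247 (-0.185), that of the large subunit -0.392, -0.44 and -0.246 (-0.152, and -0.135 with a pseudocount of 5), and that of the small subunit -0.47 and -0.518 with the first pair (-0.234). The large minus small difference was 0.002 with length and GC correction (0.082). The sign of some rises turned: Mrpl45 was at -0.07, -0.12 and -0.04, Mrpl50 at -0.03, -0.08 and -0.02, and Mrps30 at -0.08, -0.12 and -0.10 in the same order. Of these values only that of Mrps30 with length and GC correction was called lower. With the first pair Mrps18b was at -0.06 and -0.11 and not called. Mrps18c was at -0.19 and -0.24 and Mrpl30 at -0.15 and -0.20 with that pair, and Mrpl10 at -0.16 with spike-in scaling. Median-ratio and spike-in scaling subtract about the same shift from every gene by construction, while the length and GC correction differs from gene to gene; otherwise the cause was not tested.

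Leaving out 1 library gave 4 to 11 members higher and 32 to 40 lower, with 4 higher without WT replicate 1. The large subunit had 4 to 9 higher and 17 to 22 lower, and the small subunit 0 to 2 higher and 15 to 19 lower. Medians lay from -0.203 to -0.157 for members, -0.149 to -0.104 for the large subunit and -0.263 to -0.183 for the small. The large minus small difference lay from 0.049 to 0.119, and all genes from 5442 to 6145 higher and 1875 to 2237 lower. With the replicate block 11 members were higher and 42 lower, so the block moved no count by over 1.5 times; of the named members it changed only the call of Mrps12 (adjusted p 0.0324, within 1.12e-06 to 0.641 over its alternatives). Of the 40 members called lower, 30 kept the call under all 12 alternatives, and of the 11 called higher, 1 did. The depth is not known, and there are 2 libraries a genotype, so the precision per gene rests on the spread between them.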
